A study of Mus musculus with 12 samples.

Results

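The cortex of homozygous (HOM) Myt1l mutant mice was compared directly with that of heterozygous (HET) mice, without wild-type as a reference. Members were the cells with condition HET or HOM in the deposited cell table that belonged to a cell type with at least 100 cells in each library. They were 12045 HET and 13678 HOM cells of 19 cell types, out of 36263 cells of 21 cell types in all. The SVZ2 (migrating) and Choroid plexus types had fewer cells and entered by share only. Prefrontal cortices were taken at postnatal day 0 from mice, C57BL/6J by the labels and C57BL/6N in the study's account of the line, in which 7 bp of Myt1l exon 6 are deleted, on one allele in HET and on both in HOM. Cells from a pair of animals per genotype were methanol-fixed and mixed, and each mix went into 1 droplet library of 5′ reads, so that the 8 deposited samples compared are 4 runs of each library. The deletion is a germline one, not limited to a cell type, and cells could not be traced to single animals in the tables used here. With 1 library per genotype nothing could be tested against the spread between animals, so each difference below is one between 2 libraries.

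MYT1L is a zinc finger transcription factor of neurons that recruits corepressors and is best known for keeping non-neuronal genes silent. Its gene is switched on as progenitors become neurons and stays on in differentiated neurons. At birth the mouse cortex holds newly made layer neurons, migrating interneurons, remaining progenitors and immature glia.

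The allele itself is shown first, because both groups carry it and are labelled by its dose. The genotyping primers of the study were placed on the Myt1l transcript of GENCODE M21, where the deleted bases lie at chr12:29783649-29783655 on the plus strand of mm10, in exon 6. The gene spans chr12:29528384-29923213. The coding sequence is printed from its start codon at position 29783621 to position 29783668, with the bases missing from the mutant in capitals.
Wild-type: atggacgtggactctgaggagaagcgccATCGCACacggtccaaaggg
Mutant: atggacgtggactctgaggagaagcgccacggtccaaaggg
Reading on in the shifted frame gave a stop codon at codon 78, in exon 9, against 1187 codons in the wild-type frame. The deletion does not remove the transcript from the assay, so the level of Myt1l RNA does not check the genotype labels. The study's figure legend pairs cell totals with genotypes in another order than the deposited cell table, and the table's condition was used here. By the legend's order the library called HOM here would be heterozygous and the one called HET wild-type, and every comparison described below would then be another one. The values used here do not settle which order is right.

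The HET library held 12072 cells with a median of 1099 molecules, and the HOM library 13688 cells with a median of 1330. The mitochondrial share of molecules had a median of 5.36% in HET and 3.76% in HOM. It was lower in HOM in 18 of the 19 compared types, and median molecules were higher in HOM in 13. Xist, the RNA of the inactive X chromosome, had a value in 2 HET cells and 1 HOM cell, and a Y-linked transcript in 15.4% and 15.2% of cells, so the libraries did not differ in these sex-linked transcripts. The libraries shared 240 cell barcodes. Deposited cell type names were read against marker lists. Each of the layer II-IV, layer V-VI, layer I, interneuron, striatal, astrocyte, oligodendrocyte, microglia and endothelial lists was highest in a type of that name. At least 3 types stood apart from their names. Endothelial2 [21-P] was highest of all types for pericyte and mural cell markers and for meningeal markers. LayerV-VI [12-P] scored 0.708 on the layer V-VI markers, below Striatal inh1 (0.827), and 0.770 on the layer II-IV markers. Astrocytes (immature) 1 [10-P] was highest for the radial glia markers, at 3.49 against 3.10 on the astrocyte markers. The class called progenitors below joins SVZ1 (migrating) [2-P] and the Ganglionic eminences. SVZ1 was highest of all types for intermediate progenitor markers (1.85) but lowest for radial glia markers (-0.78). It scored 1.48 on the layer II-IV markers, above LayerII-IV [4-P] (1.22). Its cell cycle score was -0.19, against 3.90 in the Ganglionic eminences. These scores are means over the markers of the log2 level above the median type, and the types are used by their deposited names only.

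Among the 19 compared types, the share of cells differed most in LayerII-IV [4-P]. It made up 11.3% of HET cells (1368 cells) and 4.94% of HOM cells (676 cells), a ratio of 0.436. LayerV-VI [18-P] made up 13.4% and 10.7%, whereas LayerII-IV [1-P] made up 14.1% and 15.1% and LayerV-VI [12-P] 3.64% and 3.71%, both with overlapping intervals. The layer types joined, layer I included, took 43.4% of HET and 36.1% of HOM cells. Layer I neurons, which include the reelin-producing Cajal-Retzius cells, went the other way, from 0.944% of HET cells to 1.73% of HOM cells. Exact 95% intervals (Clopper-Pearson), made from cell numbers alone and so blind to animals, lay apart in 9 of the 21 types.

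The other types whose intervals lay apart with a higher share in HOM were Int1 [5-P], with 4.44% in HET and 5.99% in HOM, SVZ1 (migrating) [2-P], with 4.65% and 5.79%, and Astrocytes (immature) 2 [13-P], with 15.4% and 18.6%. Those apart with a lower share were Int4 [6-P], with 3.95% and 2.89%, Astrocytes (immature) 1 [10-P], with 2.08% and 1.32%, and SVZ2, with 19 cells in HET and 3 in HOM. Endothelial1, Int3 and Oligodendrocytes, among others, also had higher shares in HOM, with overlapping intervals. The immature astrocyte types thus moved in opposite directions. Depth moved with several of these shares. Among cells with at least 2000 molecules, LayerII-IV [4-P] took 3.72% and 2.63%, and the intervals of Layer I, SVZ1 and LayerV-VI [18-P] overlapped. Astrocytes (immature) 2 then took 9.91% and 9.73%, so its higher share in HOM was not seen in the deeper cells. The gaps of Int4 (5.16% and 2.24%) and Astrocytes (immature) 1 (2.98% and 1.34%) were instead wider there. Both types had fewer median molecules in HOM, with 1527 in HET and 913 in HOM for Int4. For Astrocytes (immature) 1 the medians were 2079 and 1106.

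**Figure D1:**
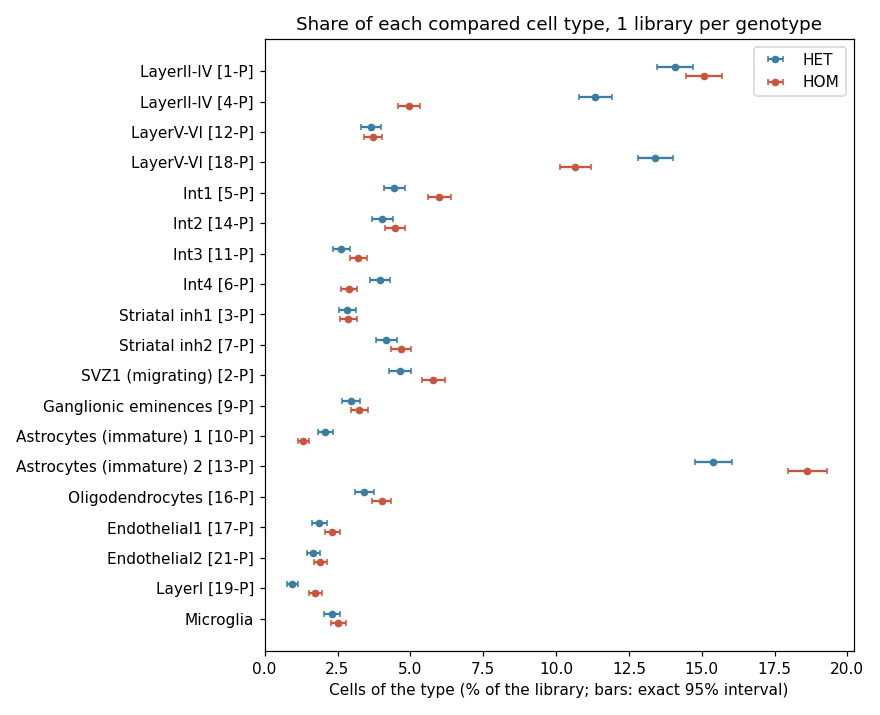
The x axis gives the share of the library's cells in percent for each of the 19 compared types (y axis), HET in blue and HOM in red, with exact 95% intervals as bars. The widest gap is in LayerII-IV [4-P], at 11.3% in HET and 4.94% in HOM.

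Myt1l was higher in HOM than in HET in 18 of 19 types. Levels are given per 1000000 of the summed depth-corrected values of a type, and a gene had to reach a sum of 50 in the type, HET and HOM together, to be compared. In LayerII-IV [1-P] the Myt1l level was 889 in HET and 1406 in HOM, in LayerII-IV [4-P] 591 and 987, in LayerV-VI [12-P] 530 and 948, and in LayerV-VI [18-P] 510 and 810. The mean log2 ratio of HOM over HET in these 4 types was 0.73, with an SD over the types of 0.083. Of the class called progenitors here, the migrating SVZ1 cells had the higher level in both libraries, at 842 and 1455. The Ganglionic eminences, rich in dividing cells, had 76.8 and 65.7 and were the one type where Myt1l was lower in HOM. Endothelial1 [17-P] differed by a log2 ratio of only 0.05. Microglia, which are not a known source of Myt1l, had 90.6 in HET and 183 in HOM.

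**Figure D2:**
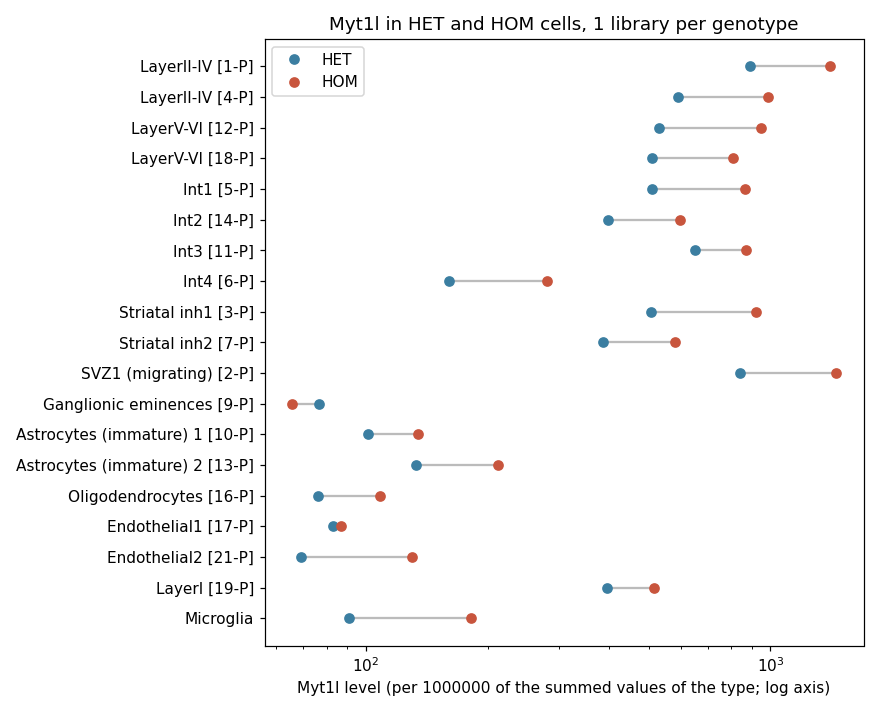
The x axis gives the Myt1l level per 1000000 on a log scale in each of the 19 compared types (y axis), HET in blue and HOM in red, 1 library each. The HOM point lies to the right in 18 types and to the left in the Ganglionic eminences.

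In the 4 layer II-VI types 4094 genes were compared, of which 537 (13.1%) were higher and 622 (15.2%) lower in HOM in every type. At least 1.5-fold in every type were 8 genes (0.195%) in the higher and 7 (0.171%) in the lower direction. The higher count fell to 1 with a minimum sum of 200, to 1 among cells with at least 2000 molecules and to 4 at a type probability of at least 0.9, and the lower count was 3 with a minimum sum of 200 and 12 with one of 20. The median log2 ratio over all compared genes was -0.01. These types come from the same 2 libraries and are not replicates.

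Among genes higher in HOM, Txnip, which binds thioredoxin and limits glucose uptake, had a level of 16.1 in HET and 65.9 in HOM in LayerII-IV [1-P], 10.8 and 52.9 in LayerII-IV [4-P], 38.5 and 228 in LayerV-VI [12-P], and 13.7 and 50.02 in LayerV-VI [18-P]. It was also higher in Int1 and SVZ1 (log2 ratios 2.18 and 2.31) and lower in Endothelial2 (-0.39). Hist1h1e, a linker histone, was 61.7 in HET and 145 in HOM in LayerII-IV [1-P] and 44.4 and 138 in LayerV-VI [18-P], and was higher in each type where it was compared. The cell surface proteoglycan Gpc2 had a mean log2 ratio of 0.81, the nucleoside transporter Slc29a1 0.78, the brain arginine methyltransferase Prmt8 0.86 and the calcium channel subunit Cacnb3 0.58. The others of this rank were the noncoding 2610035D17Rik (1.19) and Snhg1 (0.64), Atrnl1 (0.69), and Npy, the peptide of some interneurons (0.84).

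Npy in layer neurons was uneven. In LayerII-IV [4-P] it was 721 in HET and 1878 in HOM, and in LayerII-IV [1-P] 114 and 162, while Int2 [14-P] had 2048 and 1478. The layer types thus moved against the interneuron type in which Npy was highest.

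Ptgds, the secreted prostaglandin D synthase of meninges and choroid plexus, led the list. It had a mean level of 1.67 in HET and 213 in HOM layer neurons, from 9 HET cells and 370 HOM cells with a value above 0. Over all cells, 0.555% of HET and 9.18% of HOM cells had a value. The share in HOM lay between 6.31% and 23.1% over the compared types, in neurons as in glia, and the highest was in Endothelial2. Summed levels of the meningeal markers (17 of 18 in the table) were higher in HOM in 19 of 19 types, with a median over types of 29.6 in HET and 293 in HOM, but Ptgds is one of these markers. Without it, a choice made after seeing the data, the 16 others were higher in HOM in 18 of 19 types, with medians of 27.1 and 65.9. The blood cell markers were higher in HOM in 19 of 19 types too, at medians of 949 and 1497. The part of these other cells in the differences described here was not tested.

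**Figure D3:**
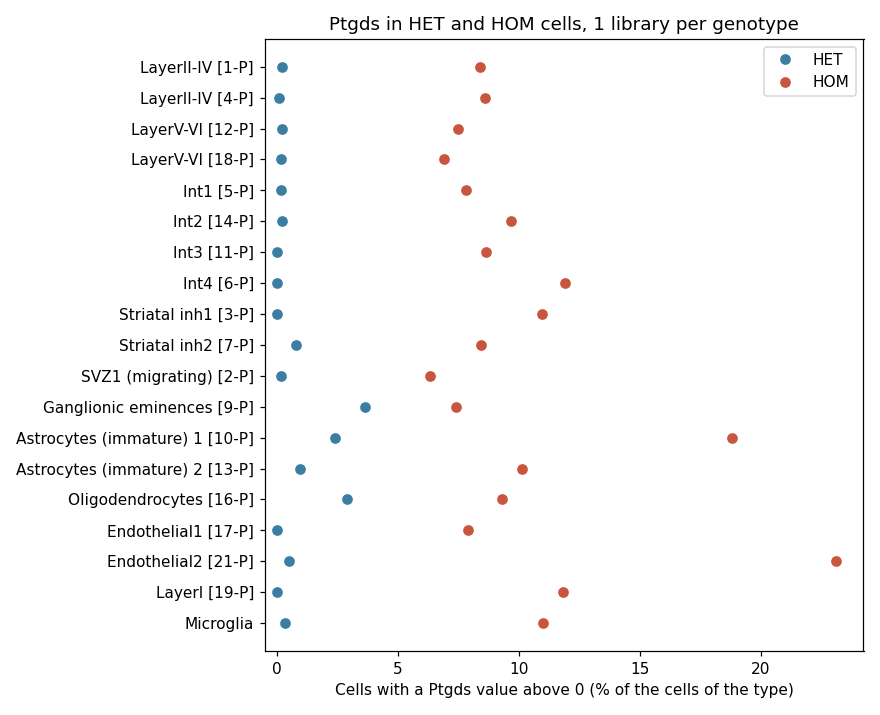
The x axis gives the percent of cells of each compared type (y axis) with a Ptgds value above 0, HET in blue and HOM in red. All HET points lie at or below 3.65%, and all HOM points at or above 6.31%.

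Among genes lower in HOM, Nrip1, a corepressor of nuclear receptors, had a level of 153 in HET and 80.8 in HOM in LayerII-IV [1-P], 95.1 and 37.0 in LayerII-IV [4-P], 97.1 and 45.6 in LayerV-VI [12-P], and 80.5 and 47.04 in LayerV-VI [18-P]. In Int1 it was 82.9 and 81.5. Nudcd3 had a mean log2 ratio of -0.91 in the layer types and lay lower in HOM in each other type where it was compared. Also of this rank were the splicing helicase Dhx15 (-0.84), the spliceosome protein Snrnp27 (-0.89), the helicase Ddx18 (-0.84), the mitochondrial fission enzyme Dnm1l (-0.58), the complex I subunit Ndufb1-ps (-0.51) and the ATP synthase subunit Atp5k (-0.55). The list of splicing and RNA binding genes had 7 of 29 higher and 8 lower in all 4 layer types, against 13.1% and 15.2% of all genes. Its median was -0.01, and its summed level was higher in HOM in 9 of 19 types. Etv1, an ETS factor of deep layer neurons, had 62.2 in HET and 16.97 in HOM in LayerII-IV [1-P], against 125 and 88.7 in LayerV-VI [18-P]. Knop1, Rnf24 and Gm5914 completed the rank with -0.68, -0.68 and -0.97.

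**Figure D4:**
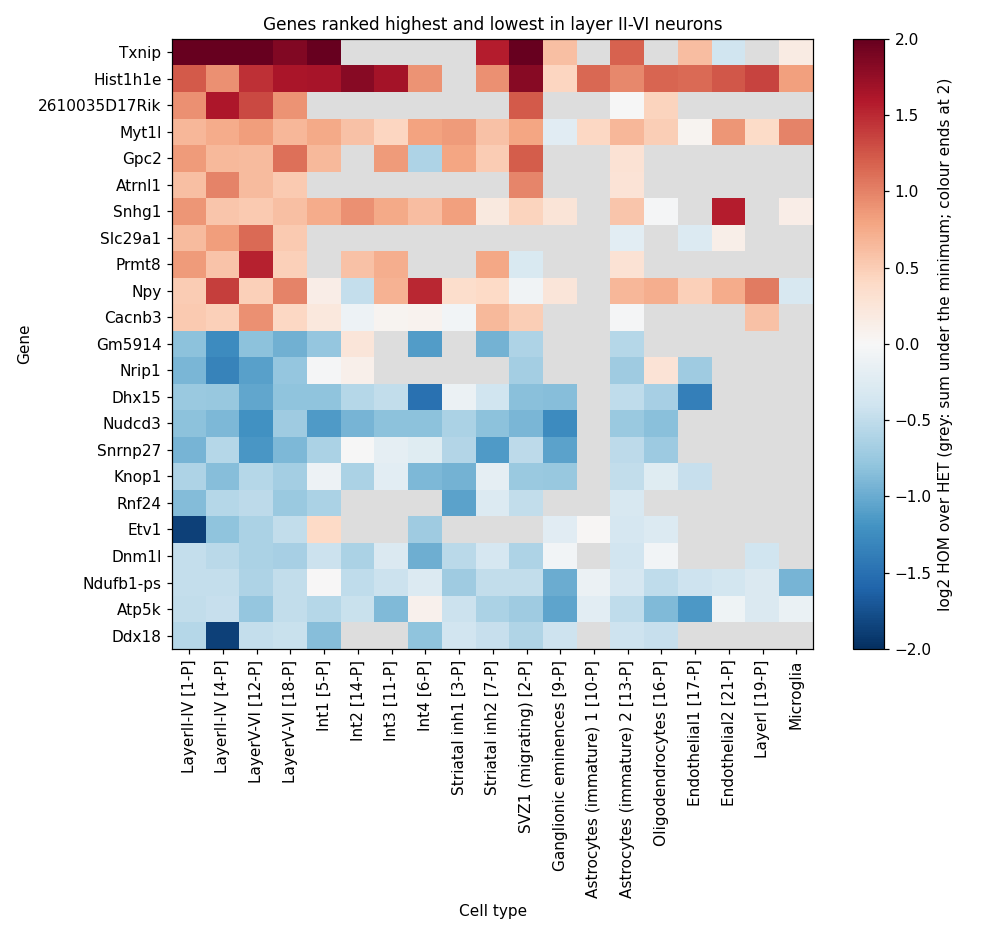
Rows are the genes ranked highest and lowest in the layer types (Ptgds left out), columns the 19 compared types, and colour the log2 ratio of HOM over HET, with colours ending at 2 and grey where the sum was under the minimum. Hist1h1e is red and Nudcd3 blue in every type compared, whereas Nrip1 is blue in layer neurons and near white in Int1.

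The MYT1L binding motif AAAGTT was counted on both strands of 300-base promoter windows from RefSeq (250 bases before the start site). It lay in 14.1% of all 27025 promoters and in 8.91% of the 3267 promoters of genes compared in layer neurons. Of the genes higher in every layer type it lay in 8.96% (38 of 424), and of those lower in 10.9% (53 of 485). The matches upstream of ranked genes are shown with the motif in capitals, as read on the gene's strand of GRCm38.p6, for 2610035D17Rik (chr11:113202014-113202043, minus), Slc29a1 (chr17:45599781-45599810, minus) and Dhx15 (chr5:52190739-52190768, minus).
2610035D17Rik: tctcttcgttacAAAGTTtgcgaagggagg
Slc29a1: caggcccggcagAACTTTttcctccacccc
Dhx15: ctaggctttttcAACTTTcccaacgaactc
A match is a description of these letters and not a binding site.

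Lists of genes were described by counts and medians. Mitochondrially encoded genes had a median below 0 in each class. In layer neurons 12 of 12 were lower in all 4 types, against 15.2% of all genes compared, with a median log2 ratio of -0.55. The complex I subunit mt-Nd3 had a mean level of 1026 in HET and 501 in HOM, and mt-Nd1 5169 and 3058. The median was -0.47 in progenitors, -0.50 in striatal neurons, -0.20 in glia and -0.55 in microglia. Nuclear genes of the respiratory chain had a median of 0.00 in layer neurons. There 4 of 35 were higher and 4 lower in every type, against 13.1% and 15.2% of all genes compared. In glia their median was 0.19, with 20 of 34 higher in every type, against 21.6% of all genes, and 1 lower, against 21.5%.

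Glycolysis and hypoxia genes had a median above 0 in each class, highest in progenitors. There 11 of 14 were higher in both types, with a median of 0.62, against 26.3% of all 2851 genes compared, and 1 was lower, against 35.6%. Eno1, the glycolytic enolase, had 84.7 in HET and 187 in HOM in SVZ1 and 292 and 653 in the Ganglionic eminences. Ldha, lactate dehydrogenase, had 108 and 198 in SVZ1 and 536 and 1180 in the Ganglionic eminences, and Pkm had a mean log2 ratio of 0.80. In the layer types 7 of 16 were higher in every type, against 13.1% of all genes compared there, and 0 lower, against 15.2%. Their median was 0.18, and 0.40 among cells with at least 2000 molecules. In Layer I the median was 0.47. Striatal neurons had 7 of 14 higher and 3 lower in both types, against 30.1% and 29.3% of all genes, with a median of 0.14. Microglia had 9 of 14 higher and 5 lower, where 51% of all genes compared were lower, with a median of 0.10.

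In progenitors 26.3% of all compared genes were higher and 35.6% lower in both types. Only 5 of the 26 cell cycle genes reached the minimum sum in both types. Of these 2 were higher and 2 lower in both, with a median of -0.02, and the Ganglionic eminences were not described alone. Of the intermediate progenitor genes compared in both types 2 of 5 were higher and 1 lower, with a median of -0.03. Hes6, a Hes family gene active in differentiating neural progenitors, had a mean level of 301 in HET and 523 in HOM. The genes ranked lowest there were Dhx15 (-0.85), the ubiquitin ligase G2e3 (-0.93), Knop1 (-0.75) and the replication factor Rfc3 (-0.83). Of the autism risk genes compared in progenitors, 11 of 17 were lower in both types, against 35.6% of all genes, and 1 higher, against 26.3%. Their median was -0.21. Among them the microRNA pathway gene Tnrc6b had -0.78, the histone methyltransferase Ash1l -0.62 and the transcription factor Tcf4 -0.56. In layer neurons 4 of 29 were lower and 2 higher in every type, against 15.2% and 13.1% of all genes compared there. Their median was -0.02.

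Transcript length moved with these directions. In progenitors 53.9% of genes among the 25% shortest (by longest transcript) were higher in HOM on average, and 32.1% among the 25% longest. In layer neurons the shares were 57.3% and 43.0%, in interneurons 64.9% and 29.9%, in glia 70.5% and 26.9%, and in Layer I 68.6% and 37.1%. The part of length in the list values was not tested.

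The next counts are of genes with 1 direction in all 4 layer types, as 13.1% (higher) and 15.2% (lower) of all compared genes had. Of the histone genes 8 of 11 were higher and 0 lower, while 3 were mixed, and the median was 0.19. They included Hist1h2ae (mean log2 ratio 0.62) and the variant H2afv (0.34). The list of SIN3, HDAC and REST corepressor genes, some of them partners of MYT1L, had 0 of 14 higher and 5 lower, with a median of -0.08. The lower ones included Sin3b (-0.31) and Chd4 (-0.17). They also included Nrip1, a corepressor of nuclear receptors that was already among the lowest ranked genes above. Of the layer II-IV identity genes 4 of 9 were lower, namely Lmo4 (-0.45), Rorb (-0.43), Pou3f2 (-0.40) and Mef2c (-0.36), 0 were higher and the others mixed. The median of this list was -0.06, and -0.17 among cells with at least 2000 molecules. It was 0.026 at a type probability of at least 0.9 and 0.016 with a minimum sum of 200. Genes of newborn neurons had 8 of 19 higher and 3 lower, with the growth cone gene Basp1 at -0.34 and Neurod2, a neuronal bHLH factor, at 0.40. The median of the newborn neuron list was 0.07, and -0.017 with HOM cells weighted to the HET depth. Synaptic genes had 1 of 17 higher and 2 lower, and WNT pathway genes 0 of 8 higher and 1 lower, both lower shares close to that of all genes. The WNT median was -0.01, and 0.34 among cells with at least 2000 molecules.

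**Figure D5:**
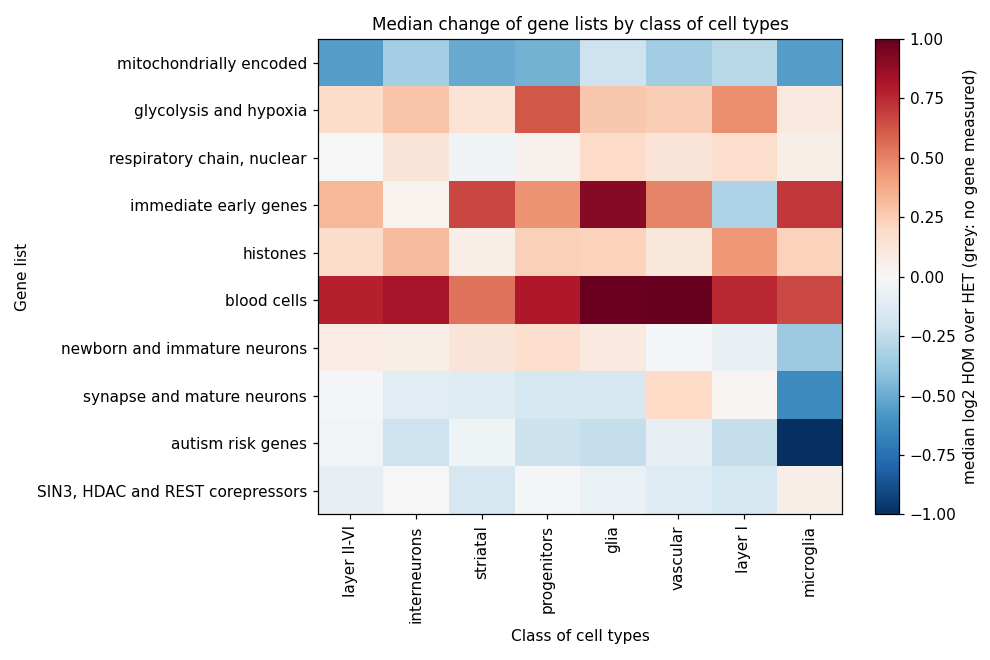
Rows are gene lists, columns the classes of cell types, and colour the median log2 ratio of HOM over HET over the list's compared genes, with colours ending at 1. Mitochondrially encoded genes are blue in each class, blood cell genes red in each class, and glycolysis genes deepest red in progenitors, at 0.62.

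Interneurons had 12.8% of 2797 genes higher and 13.7% lower in every type. Hist1h1e had a mean log2 ratio of 1.504 and Snhg1 0.76, followed by the sterol carrier Npc2 (0.65) and Zfand6 (0.56). Nudcd3 (-0.93), the chaperone cofactor St13 (-0.56), Mtpn (-0.49) and Zc3h15 (-0.51) were lowest. Striatal neurons had 30.1% of 3138 genes higher and 29.3% lower in both types. The immediate early gene Jun (0.94) and the nuclear lamin Lmnb1 (0.69) were among the highest after Ptgds, and Nudcd3 (-0.72), Mef2c (-0.65), Sec62 (-0.62) and Phf20l1 (-0.63) lowest.

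Glia had 21.6% of 1677 genes higher and 21.5% lower in each of the 3 types. Fos, an immediate early transcription factor, had levels of 231 in HET and 523 in HOM in Astrocytes (immature) 1, 278 and 455 in Astrocytes (immature) 2, and 111 and 202 in Oligodendrocytes. Of the immediate early genes, 3 of 5 were higher in every glial type, with Egr1 at 1.19 and Ier2 at 1.08. The median of this list was 0.91, but 0.063 with a minimum sum of 200. Gapdh (0.55), the proteasome subunit Sem1 (0.56) and the cytochrome oxidase subunit Cox8a (0.43) were the others of the highest rank, and the heterochromatin protein Cbx3 (-0.80), Sec62 (-0.56), Ktn1 (-0.57) and Tcf4 (-0.54) the lowest. Vascular types had 27% of 1507 genes higher and 29.1% lower in both. The cell cycle inhibitor Cdkn1c had 141 in HET and 340 in HOM in Endothelial1 and 194 and 397 in Endothelial2. The chaperonin Hspe1 (0.69), Ubl5 (0.56) and Anapc11 (0.56) followed, and Cbx3 (-0.83), Rapgef5 (-0.66), the nuclear RNA Malat1 (-0.67) and Pdap1 (-0.77) were lowest.

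Layer I neurons, with 114 HET and 237 HOM cells, had 8.35% of 1269 genes at least 1.5-fold higher and 7.57% at least 1.5-fold lower. The spliceosome subunits Snrpd2 (244 in HET and 493 in HOM) and Snrpf (181 and 350) and the complex III subunit Uqcr10 (260 and 493) were highest with Sem1 (0.87). Eloc (-1.06), Rufy3 (-1.06), Snhg11 (-0.91) and the RNA binding Celf4 (-0.90) were lowest. Of the autism risk genes 7 of 7 had values below 0, as did 50.1% of all genes compared, with a median of -0.24.

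Microglia, with 278 HET and 346 HOM cells, had 6.67% of 2009 genes at least 1.5-fold higher and 8.11% at least 1.5-fold lower. Of the immediate early genes 7 of 11 were at least 1.5-fold higher and 0 lower, with a median of 0.71. They included Ier3 (1.85), Atf3 (1.14), Ier2 (1.04) and Fos (0.92), and the chemokine Ccl4 was at 306 in HET and 661 in HOM. Ier3 and the others encode factors that cells switch on soon after a stimulus. With HOM cells weighted to the HET depth the median was 0.30.

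Pf4, a chemokine gene of border macrophages and platelets, had a value in 1 HET and 20 HOM microglia, at levels of 3.36 and 323. Mrc1, another border macrophage marker, was at 36.9 and 172. The microglial receptor genes P2ry12 (588 and 532) and Cx3cr1 (316 and 384) were close in both libraries. The HOM cells under this name thus held more border macrophage transcripts, and the microglia and macrophage list had a median of 0.27, which was -0.36 among the 65 HET and 58 HOM cells with a type probability of at least 0.9. Genes of newborn neurons were below 0 in 17 of 17, as were 51% of all genes compared, with a median of -0.36, which was -0.22 with HOM cells weighted to the HET depth. Among them were Sox11 (-0.79) and Dpysl3 (-0.56). Synaptic genes were below 0 in 5 of 6, with a median of -0.64. The part of RNA from neurons in these values was not tested. The osteopontin gene Spp1 (460 and 198), Kif5c, Nfix and Nsg1 (-1.19, -1.14 and -1.10) were lowest. A single HET cell held 76 of the summed Spp1 value of 137 in HET, and without the highest cell of each library, a choice made after seeing the data, the Spp1 levels were 206 and 143.

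Over all 19 types 899 genes were compared, of which 40 (4.45%) were higher and 30 (3.34%) lower in HOM in each. Gapdh, the glycolytic enzyme, had a mean log2 ratio of 0.46 with a lowest value of 0.21, the G protein subunit Gng5 0.46, Ldha 0.52, the ferritin light chain Ftl1 0.30, the actin-binding Tmsb4x 0.32, the elongation factor Eef2 0.25, Swi5 0.23 and the spliceosome subunit Snrpg 0.26. Cbx3 (-0.53), St13 (-0.48), the splicing cofactor Son (-0.45), 1110004F10Rik (-0.49), the actin-severing Cfl2 (-0.34), Sec62 (-0.59), the elongation factor Tcea1 (-0.28) and the chromatin protein Hmgb3 (-0.33) were lower in each type.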

How the data were processed

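Reads were processed by the authors against the mouse build mm10 (Cell Ranger 4.0.0, then Seurat 4.0, per the submitters' processing notes). They removed cells with few or many detected genes or a high mitochondrial share and a blood cluster, and transferred cell type names with scANVI. The sources used here say nothing of doublets, and none were called. The deposited matrix (18879 genes) holds whole numbers in a score unit whose total per cell varied far less than molecules per cell, so its values were taken as depth-corrected by the authors, and no count model was applied. Per the deposited cell table, depth is in counts of molecules, the mitochondrial content as percent and the type probability as a fraction. The authors' own tables of fold changes and p-values were not used.

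For each library and type, values were summed, scaled to 1000000 and compared as log2 HOM over HET with a pseudocount of 0.5 on the sums, where both libraries together reached 50. No p-value was computed, because each genotype is 1 library. Named genes were Myt1l, the 12 highest and 12 lowest in the layer types by their smallest log2 ratio over types, 8 each way over all types, 4 each way in each other class (minimum sum 100), and up to 5 leading members of each list described, without sex-linked, haemoglobin, ribosomal or mitochondrially encoded genes in the ranks. A few genes that this rule takes are not reported here. Border macrophage, Npy and Ptgds values over cells were looked up after the data were seen. Members, lists and rules were chosen with earlier results of these data known. Transcript lengths came from GENCODE M21. Steps were tested on simulated data. Python 3.11.15, numpy 2.4.6, pandas 2.3.3 and scipy 1.17.1 were used.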

Additional observations from a re-analysis of the deposited data

How the results depend on the processing

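No value was tested between animals, and counting intervals cover shares only. No paired analysis was possible because the numbers shared by the samples of both genotypes mark runs of 1 library each. None of the ranked genes changed sign where it was still compared, although with at least 2000 molecules per cell and with the higher minimum sum most were no longer compared.

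With a minimum sum of 200, 199 genes were higher and 150 lower in all layer types, with 1 and 3 past 1.5-fold. With a minimum of 20, 1035 were lower and 12 lower past 1.5-fold. With at least 2000 molecules per cell, 279 were higher and 206 lower, with 1 higher past 1.5-fold, and at a type probability of at least 0.9 that count was 4. The percent higher moved to 26.4 (sum 200) and 28.6 (2000 molecules) in interneurons, 43.9 (sum 200) in progenitors, and 14.2 (sum 20), 46.8 (sum 200) and 34.8 (2000 molecules) in glia. The percent lower moved to 8.4 in interneurons (2000 molecules) and 12.5 in glia (sum 200). Over all types the percent higher was 2 (sum 20), 14.3 (sum 200), 8.39 (probability) and 8.02 (HOM weighted to the HET depth), and the percent lower 1.89 (both TMM and median of ratios), 1.73 (sum 20) and 6.9 (sum 200). Fewer or more genes entered at other minimum sums, and the cause of the other moves was not tested.

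In layer neurons, with at least 2000 molecules, the log2 ratio of Myt1l was 0.86, and the list medians were 0.40 for glycolysis, -0.80 for mitochondrially encoded genes, 0.18 for newborn neurons, -0.061 for the nuclear respiratory chain, 0.14 for autism risk genes, -0.20 for corepressors and 0.34 for WNT genes. With HOM weighted to the HET depth they were 0.64 for Myt1l, -0.40 for mitochondrially encoded genes, -0.017 for newborn neurons and 0.083 for the respiratory chain. With the minimum sum of 200, glycolysis was 0.28 and histones 0.12.

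Immediate early genes in glia had 0.49 (sum 20), 0.063 (sum 200), 0.58 (2000 molecules), 0.52 (probability) and 0.74 (depth weights), and in microglia 0.60 (mean per cell), 0.91 (2000 molecules), 0.36 (probability) and 0.30 (depth weights). The microglia and macrophage list in microglia turned to -0.36 (probability) and was 0.0016 with depth weights, newborn neuron genes there were -0.22 with depth weights, and autism risk genes in progenitors -0.56 (sum 200).

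Only 1 type was apart and higher by share among cells with at least 2000 molecules, and 1 family was apart and lower with related types joined. The log2 share ratio turned to -0.026 and -0.027 for Astrocytes (immature) 2 with at least 1000 and at least 2000 molecules, to -0.29 for Endothelial2 (2000 molecules), to -0.12 for the Ganglionic eminences (depth weights) and to -0.36 for Microglia (probability).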
